A study of Mus musculus with 28 samples.

Results

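The genes described are 40 mouse genes of the mitotic spindle, the kinetochore and cytokinesis, taken by name from a list and matched by symbol to the Ensembl gene IDs of the count files. All 40 names matched, out of 56748 gene IDs. They were ordered by role: 2 genes of mitotic chromosomes, 5 that drive entry into mitosis, 4 of the chromosomal passenger complex, 5 of the spindle checkpoint, 6 of the kinetochore, 8 of the spindle, 7 of cytokinesis and 3 of mitotic exit. Total RNA was sequenced after removal of ribosomal RNA from 2 mouse cell lines of mammary origin, HC11, which the labels call untransformed, and 4T1, which they call cancer. The groups were 10 HC11 libraries treated with DOX + DIP, 8 4T1 libraries treated with DOX and 10 HC11 libraries treated with DOX, so that DOX was common to all of them. The labels spell out neither abbreviation and name no construct. The series title names PAPAS, an antisense transcript of rDNA, and the labels do not say whether it was altered in any library, so libraries of a group may differ in a way that is not known here. In HC11 work DIP commonly means dexamethasone with insulin and prolactin, the hormones that bring on milk gene expression. HC11 is a clonal line of mouse mammary epithelium and 4T1 comes from a mouse mammary tumour, so each line is 1 cell population. The labels give no separate cultures, and p-values therefore measure only the spread between these libraries, which may be technical or come from such a difference.

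In mitosis the kinetochore, a protein assembly on the centromere, captures microtubules of the spindle. The spindle checkpoint holds back the anaphase-promoting complex, a ubiquitin ligase, until every chromosome is attached, and the cell then separates its chromatids and divides by cytokinesis. Most of these genes are transcribed only late in the cell cycle, so that their RNA is abundant in dividing mammary epithelium and scarce in resting or differentiated cells. Bulk RNA cannot tell fewer dividing cells from less of these RNAs per cell.

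Libraries held 134117581 to 222065843 counts with HC11 DOX + DIP, 174275141 to 198008179 with 4T1 DOX and 135955692 to 185616382 with HC11 DOX. Values are CPM, counts scaled to library size with factors from the trimmed mean of M-values (TMM). The 6 epithelial markers checked were all detected and summed to 429 to 2202 CPM in HC11 DOX + DIP, 2132 to 3045 CPM in 4T1 DOX and 3383 to 8009 CPM in HC11 DOX. The 6 fibroblast markers summed to 2.82 to 252 CPM in HC11 DOX + DIP, 9.39 to 15.6 CPM in 4T1 DOX and 33.3 to 73.1 CPM in HC11 DOX. The 6 immune markers summed to 2.73 to 12.5 CPM in HC11 DOX + DIP, 3.59 to 9.45 CPM in 4T1 DOX, where Adgre1 and Cd3e had 0 counts, and 1.67 to 3.10 CPM in HC11 DOX. The 5 endothelial markers summed to 0.270 to 1.56 CPM in HC11 DOX + DIP, 0.115 to 0.310 CPM in 4T1 DOX and 3.29 to 5.23 CPM in HC11 DOX. The part of these marker levels in the results was not tested. Some libraries stood apart within their groups. HC11 DOX + DIP libraries 8 and 10 had 56.7 and 88.5 CPM of the basal keratin Krt5, against 322 to 810.2 CPM in the other 8, and 4T1 DOX libraries 1 and 2 had 64.8 and 95.5 CPM, against 10.8 to 25.2 CPM in the other 6. HC11 DOX library 5 stood apart on the mitotic genes themselves, as described with the comparison of the cell lines.

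The first comparison asks how HC11 cells given DOX + DIP differed in these genes from HC11 cells given DOX. All 40 were lower with DIP at an adjusted p under 0.05 (quasi-likelihood test of edgeR, adjusted by Benjamini-Hochberg over the 23829 genes tested), where 21% of all genes tested were called lower and 45.5% in either direction. Log2 fold changes are given ± their standard error. Of the 40, 39 were lower by at least 2-fold, against 9.53% of all genes, and 38 by at least 8-fold, against 1.63%. The HC11 DOX + DIP and HC11 DOX libraries did not overlap for 39 of the 40, against 6.66% of all genes in that direction. The median log2 fold change of the 40 was -4.35 and their range -5.12 to -0.76, while the median of all genes tested was 0.06, with the central 90% of them between -1.63 and 1.69. Summed, the 40 genes took 0.0159% to 0.0676% of the counts of an HC11 DOX + DIP library, 0.449% to 0.538% of a 4T1 DOX library and 0.312% to 0.534% of an HC11 DOX library.

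**Figure D1:**
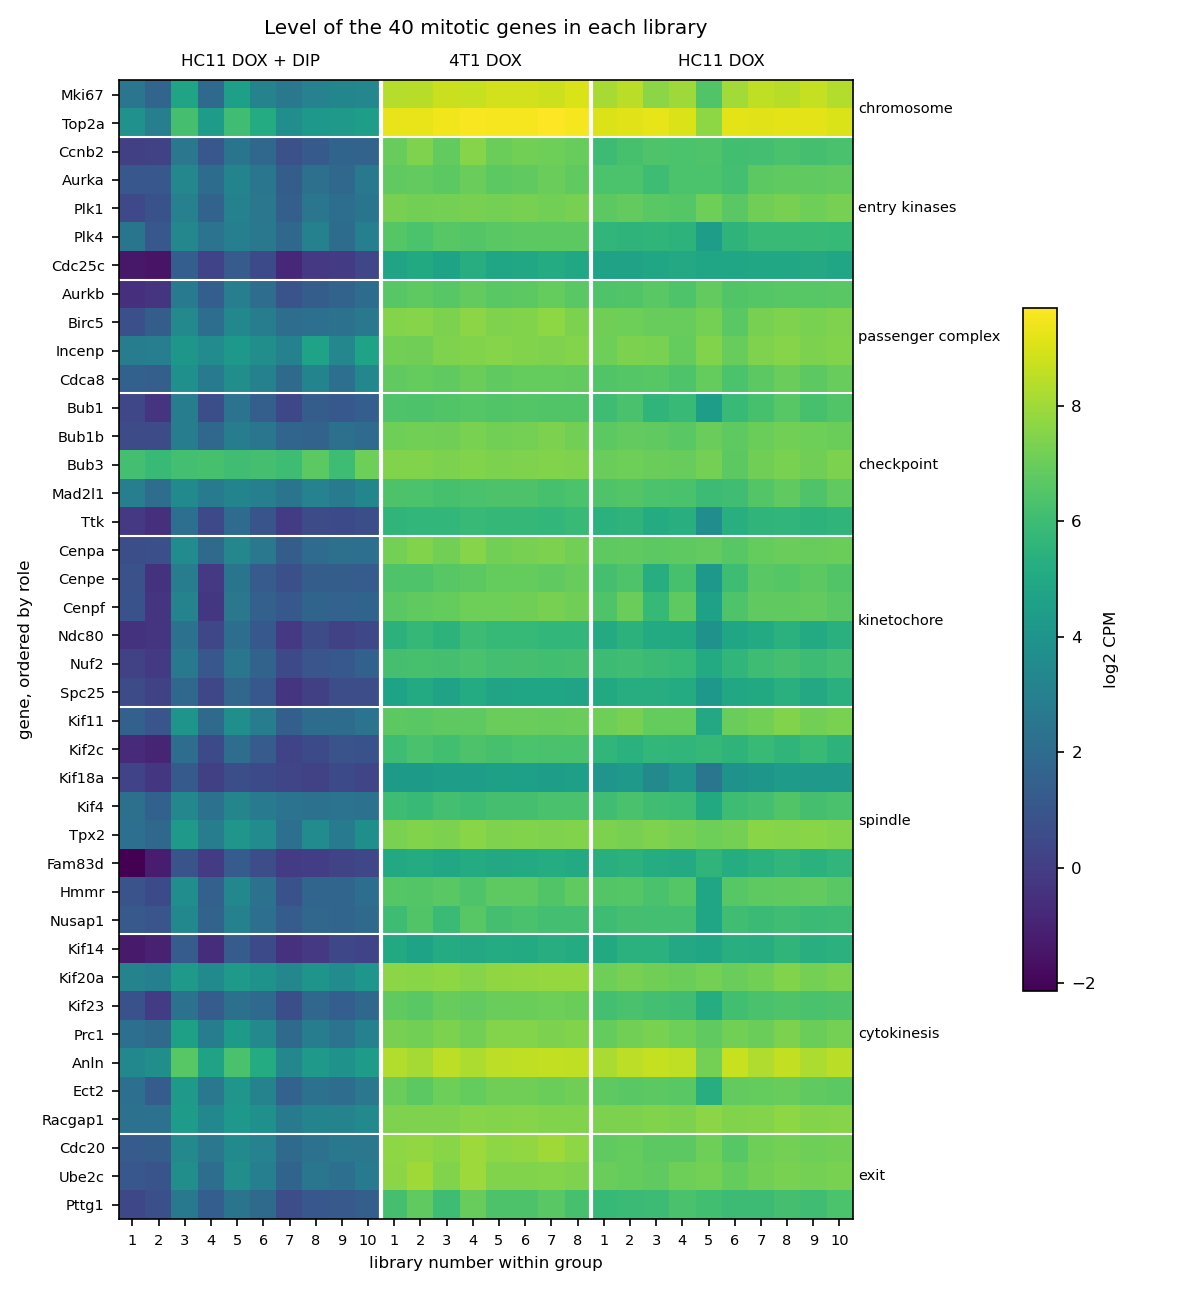
Log2 CPM of the 40 genes (rows, ordered by role) in each of the 28 libraries (columns, by group and library number). The HC11 DOX + DIP columns are dark for most genes. Bub3 is brighter in all of them, and Anln and Top2a come to about its level in HC11 DOX + DIP libraries 3 and 5. 4T1 DOX is the most even block, and HC11 DOX library 5 stands out as a darker column for part of the genes.

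Proximal promoters are shown for Fam83d, Bub3 and Plk4, from the ends of that range, and for Ube2c and Cdc20, from near the median. These genes were picked by hand. Promoters are shown because many late cell-cycle genes share promoter elements. These are the cell cycle genes homology region (CHR), searched as TTTGAA or its complement TTCAAA, which the DREAM and MuvB complexes bind, and the CCAAT box, searched as CCAAT or its complement ATTGG, which NF-Y binds. Each line gives the 120 bases before the RefSeq start, read 5′ to 3′ on the gene's strand, with both elements in capitals. The stretches lie in GRCm38.p6 at Fam83d chr2:158767979-158768098 on the plus strand, Ube2c chr2:164769809-164769928 on the plus strand, Cdc20 chr4:118437344-118437463 on the minus strand, Bub3 chr7:131560250-131560369 on the plus strand and Plk4 chr3:40799831-40799950 on the plus strand.
Fam83d: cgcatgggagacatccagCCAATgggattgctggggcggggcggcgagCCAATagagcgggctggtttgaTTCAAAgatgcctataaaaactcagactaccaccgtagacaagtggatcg
Ube2c: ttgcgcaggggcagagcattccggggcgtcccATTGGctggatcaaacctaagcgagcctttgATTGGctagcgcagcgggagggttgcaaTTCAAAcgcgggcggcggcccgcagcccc
Cdc20: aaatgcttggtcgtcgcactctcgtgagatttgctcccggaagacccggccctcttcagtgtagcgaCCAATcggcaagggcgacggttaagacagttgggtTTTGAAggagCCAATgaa
Bub3: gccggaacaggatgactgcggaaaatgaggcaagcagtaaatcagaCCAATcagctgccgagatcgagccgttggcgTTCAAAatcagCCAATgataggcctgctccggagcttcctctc
Plk4: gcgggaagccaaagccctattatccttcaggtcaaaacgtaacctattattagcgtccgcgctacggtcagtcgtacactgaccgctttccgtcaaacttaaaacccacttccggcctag

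The CHR letters begin 50 bases before the start in Fam83d, 29 in Ube2c, 18 in Cdc20 and 43 in Bub3, each with CCAAT boxes nearby, and neither element is in the stretch of Plk4. The bases just after the RefSeq start occur in a GENCODE transcript of the gene for the other 4 but not for Plk4, whose listed start was therefore not matched there. With DIP Fam83d changed most of the 40 and Bub3 least, and Plk4 fell 7.97-fold. The elements were not tested against the size of the change. RefSeq windows of 300 bases, from 250 before to 50 after the start, were found for 35 of the 40 genes (Bub3, Ect2 and Prc1 have more than 1 start, and the first listed is printed for Bub3). A CHR was in the window of 26 of the 35 (74.3%), against 17.9% of 32851 mouse promoter windows. A CCAAT box was in 25 (71.4%), against 37.4%, and both were in 23 (65.7%), against 6.95%. Within 50 bases of the start on either side, a CHR was in 23 (65.7%), against 4.94% of windows. The elements were searched separately, so a base could count for both. Besides Plk4, neither element was in the windows of Nuf2, Kif18a, Nusap1, Mad2l1, Pttg1 and Birc5.

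Among the genes of mitotic chromosomes, Mki67, which coats chromosomes and marks cycling cells, ran from 3.25 to 27.6 CPM (median 8.71) in HC11 DOX + DIP libraries, against 87.9 to 398 CPM (median 302) in HC11 DOX libraries. Top2a, the topoisomerase that disentangles sister chromatids, ran from 7.58 to 74.7 CPM (median 19.4) in HC11 DOX + DIP libraries, against 207 to 611 CPM (median 573) in HC11 DOX libraries. No HC11 DOX + DIP library reached the lowest HC11 DOX library for either gene. The log2 fold changes were -4.19 ± 0.38 (adjusted p = 9.88e-09) for Top2a and -4.73 ± 0.40 for Mki67.

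The genes that start mitosis fell by a median of 4.58 on the log2 scale. Plk1, the polo-like kinase of mitotic entry and spindle assembly, had 1.38 to 8.28 CPM (median 4.99) in HC11 DOX + DIP libraries, against 94.6 to 153 CPM (median 124) in HC11 DOX libraries. Its log2 fold change was -4.70 ± 0.30 (adjusted p = 4.41e-11), the largest of the 5. Ccnb2 (cyclin B2), a partner of the kinase Cdk1, and Cdc25c, a phosphatase that activates Cdk1, fell 25.4-fold and 23.9-fold. Aurka, the centrosomal and spindle kinase Aurora A, fell 17.7-fold. Plk4, the kinase that starts centriole duplication, changed least of the 5, at 2.09 to 9.99 CPM (median 5.81) in HC11 DOX + DIP libraries, against 22.5 to 58.6 CPM (median 49.8) in HC11 DOX libraries. The log2 fold change of Plk4 was -2.99 ± 0.23 (adjusted p = 1.07e-09), and its groups did not overlap.

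In the chromosomal passenger complex, whose kinase subunit corrects faulty kinetochore attachments, the 4 subunits fell unequally. Aurkb, that kinase, fell 27.8-fold and Birc5 (survivin) 24.6-fold. Cdca8 (borealin) fell 13.7-fold. Incenp, the scaffold of the complex, fell least, with 7.06 to 26.7 CPM (median 12.5) in HC11 DOX + DIP libraries, against 118 to 185 CPM (median 163) in HC11 DOX libraries, with a log2 fold change of -3.40 ± 0.24 (adjusted p = 2.91e-10). The highest HC11 DOX + DIP values of Incenp, 26.5 and 26.7 CPM, were those of libraries 8 and 10, and the groups did not overlap with them included. The log2 ratio of Aurkb to Incenp was -2.29 ± 0.82 in HC11 DOX + DIP libraries and -0.70 ± 0.16 in HC11 DOX libraries (SD, n = 10 each), a difference of -1.59 with an adjusted p = 0.000133 by a permutation test over libraries. For Birc5 to Incenp the difference was -1.26 (adjusted p = 0.000133, permutation test), and for Cdca8 to Incenp it was -0.43 (adjusted p = 0.0117, permutation test). These pairs were chosen with earlier results of these data known.

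The spindle checkpoint held the gene that changed least of the 40. Bub1b (BubR1), which binds and restrains Cdc20, had 1.48 to 7.27 CPM (median 3.69) in HC11 DOX + DIP libraries, against 101 to 144 CPM (median 121) in HC11 DOX libraries, a log2 fold change of -4.84 ± 0.27 (adjusted p = 7.45e-12). Bub1, a kinetochore kinase, fell 24.3-fold, and Ttk (Mps1), the kinase that switches the checkpoint on, fell 21.1-fold. Mad2l1 (Mad2), a further inhibitor of Cdc20, fell 11.1-fold, to 4.21 to 11.5 CPM (median 7.68) in HC11 DOX + DIP libraries. Bub3, the WD-repeat protein that carries Bub1 and BubR1 to the kinetochore, had 59.2 to 136 CPM (median 71.5) in HC11 DOX + DIP libraries, against 104 to 162 CPM (median 136) in HC11 DOX libraries. Its groups overlapped through HC11 DOX + DIP library 10 at 136 CPM, whereas the libraries other than 8 and 10 were all at or below 76.7 CPM. The log2 fold change of Bub3 was -0.76 ± 0.14 (adjusted p = 8.95e-05), and -0.98 (adjusted p = 7.62e-09) without libraries 8 and 10.

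**Figure D2:**
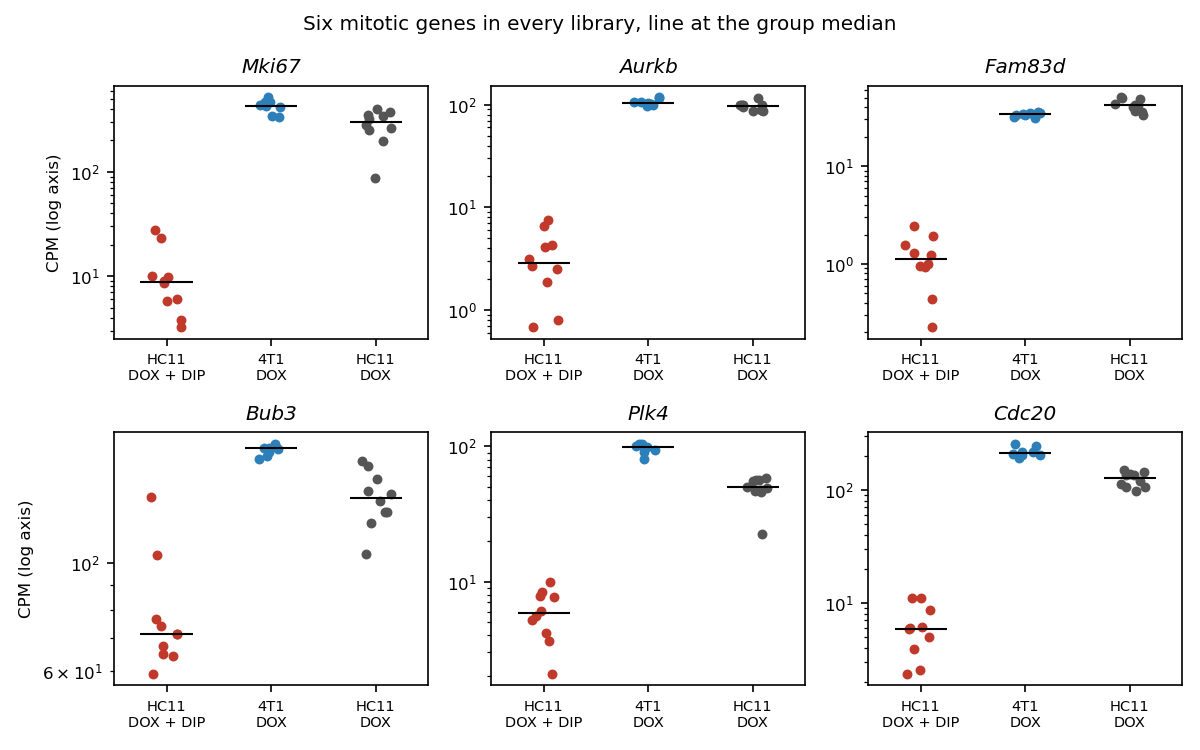
CPM on a log axis in every library for Mki67, Aurkb, Fam83d, Bub3, Plk4 and Cdc20, with HC11 DOX + DIP (10 libraries), 4T1 DOX (8) and HC11 DOX (10) from left to right and a line at the group median. HC11 DOX + DIP lies below both other groups throughout other than for Bub3, whose highest HC11 DOX + DIP library, at 136 CPM, lies among the HC11 DOX libraries.

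All 6 kinetochore genes fell at least 17.4-fold. Cenpf, a large kinetochore protein of late cell cycle, fell 28.1-fold, and Cenpe, the kinesin that brings chromosomes to the spindle equator, fell 26.8-fold. Cenpa, the histone variant that marks centromeres, had 1.60 to 11.8 CPM (median 4.24) in HC11 DOX + DIP libraries, against 98.2 to 129.6 CPM (median 112) in HC11 DOX libraries, a 22.2-fold fall. Among the 6 are 3 subunits of the NDC80 complex, which binds microtubules. Nuf2 fell 21.4-fold, Spc25 18.6-fold and Ndc80, the smallest of the 6, 17.4-fold. Ndc80 had 0.755 to 5.05 CPM (median 1.33) in HC11 DOX + DIP libraries, against 14.6 to 43.5 CPM (median 34.1) in HC11 DOX libraries, and its log2 fold change was -4.12 ± 0.36 (adjusted p = 6.59e-09).

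Of the 8 spindle genes, Fam83d, which anchors a casein kinase to the spindle, changed most, with 0.227 to 2.44 CPM (median 1.11) in HC11 DOX + DIP libraries, against 33.5 to 50.3 CPM (median 42.3) in HC11 DOX libraries. The log2 fold change of Fam83d was -5.12 ± 0.32 (adjusted p = 3.41e-11), and its groups did not overlap. Among the spindle kinesins, Kif2c, which depolymerises microtubules, fell 25.2-fold and Kif11 (Eg5), which pushes the spindle poles apart, fell 21.1-fold. Kif18a, which dampens chromosome oscillation, fell 11.6-fold, and Kif4, a chromosome-bound kinesin, 11.4-fold. Kif4 was the least changed of the 8, at 2.90 to 10.03 CPM (median 5.08) in HC11 DOX + DIP libraries, against 33.5 to 88.3 CPM (median 68.9) in HC11 DOX libraries (log2 fold change -3.51 ± 0.21 (adjusted p = 1.71e-11)). The microtubule-associated genes Hmmr, Tpx2, which activates Aurora A, and Nusap1 fell 19.5-fold, 16.7-fold and 14.2-fold.

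The cytokinesis genes fell by a median of 3.87 on the log2 scale. Kif14, the kinesin that works with citron kinase at the midbody, had 0.410 to 2.49 CPM (median 1.04) in HC11 DOX + DIP libraries, against 28.9 to 48.2 CPM (median 39.7) in HC11 DOX libraries, the largest change of the 7 at -4.99 ± 0.32 (adjusted p = 4.29e-11). Kif23 and Racgap1, which form the centralspindlin complex, fell 24.0-fold and 16.2-fold. Prc1, which bundles the microtubules of the midzone, fell 14.6-fold, Ect2, the exchange factor that activates RhoA, 13.5-fold, and Kif20a, which carries the passenger complex to the midzone, 10.6-fold. Anln (anillin), the scaffold of the contractile ring, changed least and varied most, at 10.1 to 98.5 CPM (median 19.99) in HC11 DOX + DIP libraries, against 148 to 414 CPM (median 355) in HC11 DOX libraries. Its 2 highest HC11 DOX + DIP values belonged to libraries 3 and 5, and its log2 fold change was -3.35 ± 0.41 (adjusted p = 8.17e-07).

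All 3 genes of mitotic exit fell. Pttg1 (securin), which guards the cohesin protease until anaphase, had 1.32 to 6.18 CPM (median 2.42) in HC11 DOX + DIP libraries, against 54.9 to 80.6 CPM (median 64.8) in HC11 DOX libraries (log2 fold change -4.49 ± 0.27 (adjusted p = 1.68e-11)). Ube2c, the ubiquitin-conjugating enzyme of the anaphase-promoting complex, fell 21.6-fold. Cdc20, its activator, had 2.36 to 11.0 CPM (median 5.87) in HC11 DOX + DIP libraries, against 98.3 to 149 CPM (median 127) in HC11 DOX libraries (log2 fold change -4.30 ± 0.26 (adjusted p = 2.76e-11)). For each of the 3 genes every HC11 DOX + DIP library was below every HC11 DOX library.

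The amount left with DIP differed between libraries far more than it differed in the other groups. The median over the 40 genes of a library's CPM, as a share of the HC11 DOX mean, was 1.78% in HC11 DOX + DIP library 2 and 2.20% in library 1, and 10.9% in library 3 and 9.83% in library 5. The other 6 libraries lay between 2.39% and 5.72%, among them libraries 8 and 10 at 3.90% and 4.64%. Library 3 was the highest of the 10 for 33 genes and library 5 for 5, and library 2 was the lowest for 24 and library 1 for 13. The GC content of transcripts also moved with the offset of some of these libraries from the median of the other 9. Over 12645 genes its rank correlation with that offset was -0.45 in library 1, -0.47 in library 3 and 0.40 in library 7, and -0.15 to 0.26 in the other 7. Over the 40 genes it was -0.62 in library 1, -0.40 in library 3 and -0.05 in library 7. These are descriptions of single libraries, and the part of GC content in the spread was not tested. The median SD of log2 CPM over the 40 genes was 0.88 in HC11 DOX + DIP, against 0.38 for all genes, 0.13 in 4T1 DOX, against 0.16, and 0.27 in HC11 DOX, against 0.26. The lowest count of any of the 40 genes in any library was 42, for Fam83d in HC11 DOX + DIP library 1, so none was at the limit of detection.

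Genes that act together did not always keep their proportions. Log2 ratios of 20 pairs were compared in each comparison, 40 tests in all. The pairs were chosen by complex or step with earlier results of these data known, so their p-values are not independent of those results. Between HC11 DOX + DIP and HC11 DOX, 16 of the 20 pairs differed at an adjusted p under 0.05. Other pairs of genes were not compared, so the share of all pairs that would differ is not known. Of the single genes tested, 45.5% were called in either direction. Bub1b to Bub3 was -4.37 ± 0.85 in HC11 DOX + DIP libraries and -0.17 ± 0.12 in HC11 DOX libraries (SD, n = 10 each), a difference of -4.20 (adjusted p = 0.000133, permutation test, from p = 2e-05, the smallest its resamples can give). Mad2l1 to Bub1b rose by 1.497 (adjusted p = 0.000133, permutation test), with no overlap between groups. Plk1 to Plk4 was -0.46 ± 0.60 in HC11 DOX + DIP libraries and 1.35 ± 0.46 in HC11 DOX libraries, with no overlap between groups (difference -1.81, adjusted p = 0.000133, permutation test). Kif14 to Anln differed by -1.45, Kif2c to Kif18a by -1.44 and Aurka to Aurkb by 0.82 (adjusted p = 0.000141 each, permutation test). The 4 pairs that missed the threshold were Ndc80 to Spc25 (-0.05 ± 0.16, SE), Cenpe to Cenpf (0.13 ± 0.07), Ect2 to Racgap1 (0.16 ± 0.22) and Tpx2 to Aurka (0.05 ± 0.09). Cenpa to Ndc80, at -0.36 (adjusted p = 0.0336, permutation test), was -0.24 without HC11 DOX library 5 and no longer passed (adjusted p = 0.0664).

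The second comparison sets the 4T1 DOX libraries against the same HC11 DOX libraries, the cancer line against the untransformed line under a shared treatment label. Of the 40 genes, 21 were higher in 4T1 DOX, 2 were lower and 17 passed in neither direction, where 34.3% of the 23875 genes tested were called higher and 35.6% lower. Calls in either direction thus numbered 23 of the 40, where 69.9% of all genes were called. The groups did not overlap for 11 genes, all higher in 4T1 DOX, against 19.5% of all genes in that direction and 17.5% in the other. None was called at 2-fold or more, against 12.6% of all genes called higher and 20.1% called lower by that much. The median log2 fold change of the 40 was 0.31, with 34 above 0. The median of all genes tested was -0.01, with the central 90% of them between -4.22 and 2.19. The direction of small changes rests on the scaling. With total counts in place of TMM factors the median of all genes moved by -0.23 to -0.24, 24 genes were above 0, and 9 were called higher and 6 lower. Relative to the median of all genes the median of the 40 was higher by 0.32, which a scaling that moves all genes alike cannot change. In a single fit of all 3 groups, whose shared spread includes that of the HC11 DOX + DIP libraries, 7 were called higher and 0 lower.

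**Figure D3:**
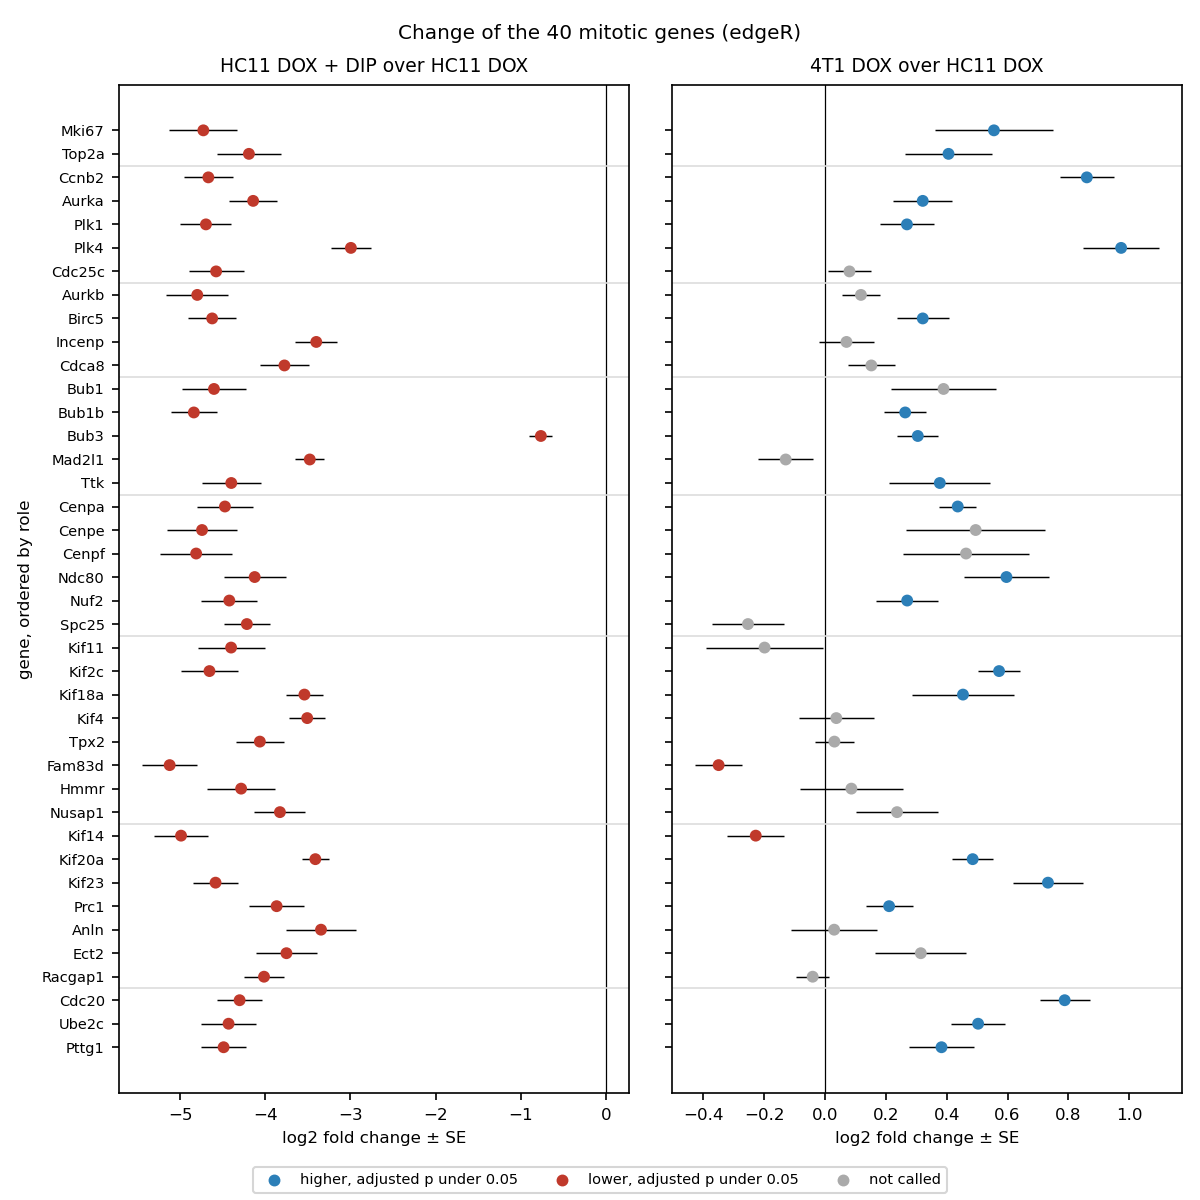
Log2 fold change with its standard error for each of the 40 genes (rows, ordered by role), HC11 DOX + DIP over HC11 DOX on the left and 4T1 DOX over HC11 DOX on the right, on axes of different range. Blue marks genes higher and red genes lower at an adjusted p under 0.05. All points on the left lie below 0, from -5.12 to -0.76, and those on the right between -0.35 and 0.97.

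HC11 DOX library 5 bears on this comparison. It was the lowest HC11 DOX library for 22 of the 40 genes, and 16 of them were at least 2-fold below the median of the other 9 libraries, the farthest being Cenpe at -2.29 on the log2 scale. Those 16 genes had transcripts of 38.2% to 48.1% GC (median 42.7%). Another 18 were less than 0.1 below that median, or above it, and had 44.1% to 56.0% GC (median 49.0%). The same tilt ran through the whole library: of 12645 genes, the fifth with the lowest GC had a median of -0.78 in library 5, against -0.07 to 0.13 in the other 9 HC11 DOX libraries, and the fifth with the highest GC had 0.27. The rank correlation of this difference with GC content was 0.56 over those genes and 0.74 over the 40, as a description of 1 library. Over all genes it was -0.34 to 0.22 in the 4T1 DOX libraries and -0.24 to 0.16 in the other 9 HC11 DOX libraries. Over the 40 genes it was -0.49 to 0.36 in the 4T1 DOX libraries and -0.58 to 0.17 in the other 9 HC11 DOX libraries. The length of the longest transcript also moved with the difference of library 5, with a rank correlation of -0.13 over 12647 genes and -0.59 over the 40. The 11 of the 40 genes of up to 3 kilobases had a median difference of 0.12, and the 29 longer ones -1.08. The part of GC content or of length in these differences was not tested. Without library 5, 23 of the 40 were called higher in 4T1 DOX and 5 lower, and the 40 remained lower with DIP.

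**Figure D4:**
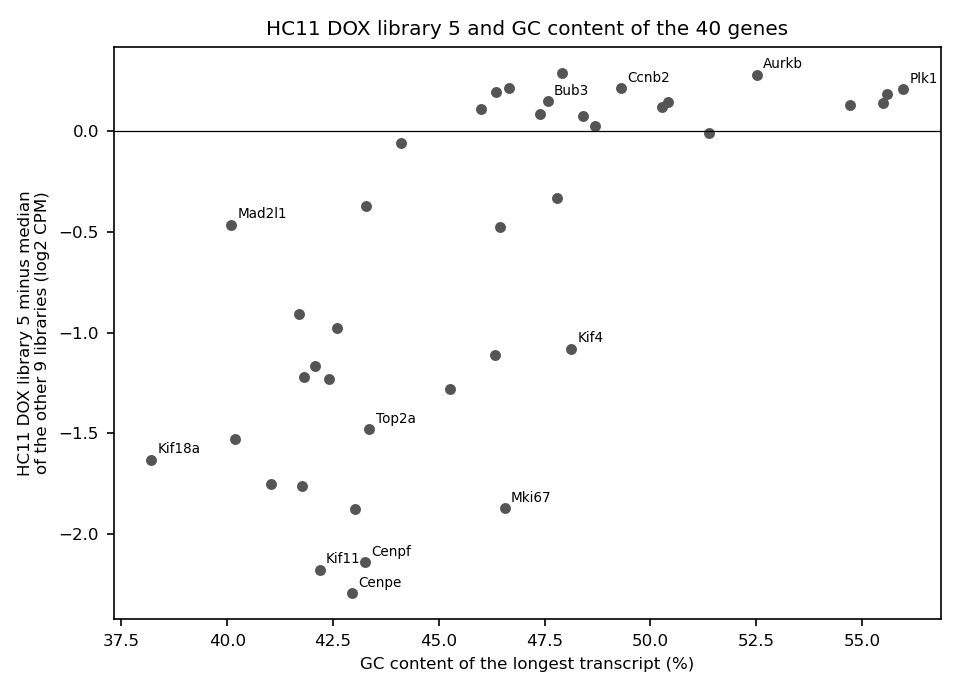
Difference of HC11 DOX library 5 from the median of the other 9 HC11 DOX libraries, in log2 CPM, against the GC content of the longest transcript in percent, 1 point for each of the 40 genes. Genes of lower GC content lie as far down as -2.29 (Cenpe), and those of the highest GC content lie close to or above 0.

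Among the chromosome and entry genes, Plk4 differed most between the lines, at 81.0 to 104 CPM (median 99.5) in 4T1 DOX libraries, against 22.5 to 58.6 CPM (median 49.8) in HC11 DOX libraries. The groups did not overlap, and the log2 fold change was 0.97 ± 0.12 (adjusted p = 7.39e-07), or 0.85 (adjusted p = 7.75e-10) without library 5. Ccnb2 had 115 to 188 CPM (median 133) in 4T1 DOX libraries, against 63.5 to 87.1 CPM (median 77.0) in HC11 DOX libraries, again with no overlap (log2 fold change 0.86 ± 0.09 (adjusted p = 3.49e-08)). Mki67, at 333 to 515 CPM (median 431) in 4T1 DOX and 87.9 to 398 CPM (median 302) in HC11 DOX, was higher by 0.56 ± 0.19 (adjusted p = 0.015), with overlapping groups. Top2a was higher by 0.41 ± 0.14 (adjusted p = 0.0153), and its groups did not overlap. Its call was lost without 4T1 DOX library 7 (0.35, adjusted p = 0.0531). Aurka and Plk1 were higher by 0.32 ± 0.10 and 0.27 ± 0.09, with overlap. The calls of Mki67, Top2a, Aurka and Plk1 were lost with total counts only and in the fit of all 3 groups. Cdc25c was not called, at 26.1 to 37.5 CPM (median 30.7) in 4T1 DOX libraries, against 25.7 to 32.2 CPM (median 29.1) in HC11 DOX libraries (log2 fold change 0.08 ± 0.07 (adjusted p = 0.319)).

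Of the passenger complex, Birc5 alone of the 4 was called, at 164 to 205 CPM (median 177) in 4T1 DOX libraries, against 100.01 to 171 CPM (median 143) in HC11 DOX libraries (log2 fold change 0.32 ± 0.08 (adjusted p = 0.00223)). The call of Birc5 was lost with total counts only (0.09, adjusted p = 0.312 by edgeR) and in the fit of all 3 groups (adjusted p = 0.212 by edgeR). The values of Aurkb, Cdca8 and Incenp were 0.12 ± 0.06 (adjusted p = 0.105), 0.15 ± 0.08 (adjusted p = 0.0864) and 0.07 ± 0.09 (adjusted p = 0.493), with overlapping groups. Aurkb was called without 4T1 DOX library 1 (0.16, adjusted p = 0.0414) and Cdca8 without HC11 DOX library 8 (0.18, adjusted p = 0.0376). In the checkpoint Bub3 was higher with no overlap, at 164 to 175 CPM (median 172) in 4T1 DOX libraries, against 104 to 162 CPM (median 136) in HC11 DOX libraries (log2 fold change 0.31 ± 0.07 (adjusted p = 0.000503)). Bub1b was higher by 0.26 ± 0.07 (adjusted p = 0.00221), and its call was lost with total counts only and in the fit of all 3 groups. Ttk had 49.1 to 57.6 CPM (median 52.7) in 4T1 DOX libraries, against 12.5 to 50.4 CPM (median 44.2) in HC11 DOX libraries, and its log2 fold change of 0.38 ± 0.17 (adjusted p = 0.0492) lay at the threshold. It passed in 7 of 25 alternatives, among them that without library 5 (0.23 (adjusted p = 0.00608)). Bub1 had 0.39 ± 0.17 (adjusted p = 0.0515), and 0.25 (adjusted p = 0.0431) without library 5. Mad2l1 had 74.7 to 84.2 CPM (median 81.5) in 4T1 DOX libraries, against 62.9 to 111 CPM (median 86.0) in HC11 DOX libraries, or -0.13 ± 0.09 (adjusted p = 0.208) as a log2 fold change, and was called lower without library 5, at -0.21 (adjusted p = 0.0298).

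In the kinetochore, Ndc80 was higher with no overlap, at 43.6 to 62.2 CPM (median 52.3) in 4T1 DOX libraries, against 14.6 to 43.5 CPM (median 34.1) in HC11 DOX libraries (log2 fold change 0.60 ± 0.14 (adjusted p = 0.000753), and 0.47 (adjusted p = 5.89e-05) without library 5). Cenpa was also higher with no overlap, by 0.44 ± 0.06 (adjusted p = 2.28e-06). Nuf2 was higher by 0.27 ± 0.10 (adjusted p = 0.0237), with overlap, and its call was lost without 4T1 DOX library 3, 7 or 8 (adjusted p = 0.0726, 0.0614 and 0.0680 by edgeR). Its value without library 5 was 0.17 (adjusted p = 0.0292). Spc25, a partner of both in the NDC80 complex, had 25.2 to 35.3 CPM (median 27.8) in 4T1 DOX libraries, against 17.9 to 41.0 CPM (median 34.3) in HC11 DOX libraries. The log2 fold change of Spc25 was -0.25 ± 0.12 (adjusted p = 0.0604), and -0.36 (adjusted p = 0.000668) without library 5. Cenpe and Cenpf, at 0.50 ± 0.23 (adjusted p = 0.0606) and 0.46 ± 0.21 (adjusted p = 0.0532), were not called, and without library 5 they were 0.34 (adjusted p = 0.0503) and 0.31 (adjusted p = 0.0356).

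Of the 8 spindle genes, 2 were higher, 1 lower and 5 were not called. Kif2c was higher with no overlap, at 64.1 to 84.7 CPM (median 78.1) in 4T1 DOX libraries, against 42.7 to 58.5 CPM (median 49.7) in HC11 DOX libraries (log2 fold change 0.57 ± 0.07 (adjusted p = 4.57e-07)), and Kif18a was higher by 0.45 ± 0.17 (adjusted p = 0.0205) with overlap. The call of Kif18a was lost without 4T1 DOX library 3 or 8 (adjusted p = 0.0502 and 0.0537 by edgeR). Fam83d, which fell most with DIP, was 1 of the 2 genes lower in 4T1 DOX, at 31.4 to 36.1 CPM (median 33.9) in 4T1 DOX libraries, against 33.5 to 50.3 CPM (median 42.3) in HC11 DOX libraries (log2 fold change -0.35 ± 0.08 (adjusted p = 0.000421)). Kif11 had 102 to 126 CPM (median 116) in 4T1 DOX libraries, against 32.1 to 175 CPM (median 141) in HC11 DOX libraries. Its log2 fold change of -0.20 ± 0.19 (adjusted p = 0.368) became -0.35 (adjusted p = 0.000539) without library 5. Nusap1, Hmmr, Kif4 and Tpx2 were not called, at 0.24 ± 0.13 (adjusted p = 0.123), 0.09 ± 0.17 (adjusted p = 0.662), 0.04 ± 0.12 (adjusted p = 0.801) and 0.03 ± 0.07 (adjusted p = 0.684). The sign of Hmmr, Kif4 and Tpx2 turned without library 5, to -0.06, -0.08 and -0.03, Nusap1 was then 0.12 (adjusted p = 0.216), and the sign of all 4 turned with total counts alone. Of these 4, Tpx2 was called lower with total counts, at -0.20 (adjusted p = 0.0173 by edgeR).

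In cytokinesis, Kif23 was higher with no overlap, at 101 to 133 CPM (median 125) in 4T1 DOX libraries, against 36.4 to 87.5 CPM (median 75.0) in HC11 DOX libraries (log2 fold change 0.73 ± 0.12 (adjusted p = 1.23e-05), and 0.62 (adjusted p = 1.45e-07) without library 5). Its partner Racgap1 had 169.8 to 187 CPM (median 176) in 4T1 DOX libraries, against 163 to 203 CPM (median 177) in HC11 DOX libraries, a log2 fold change of -0.04 ± 0.05 (adjusted p = 0.517). With total counts alone Racgap1 was called lower, at -0.27 (adjusted p = 5.54e-05 by edgeR). Kif20a was higher with no overlap by 0.49 ± 0.07 (adjusted p = 1.92e-06). Prc1 was higher by 0.21 ± 0.08 (adjusted p = 0.0196) with overlap, and it was no longer called without HC11 DOX library 5 (0.14, adjusted p = 0.0648) or 4T1 DOX library 3, 7 or 8 (adjusted p = 0.0559, 0.0570 and 0.0688 by edgeR). Kif14 was the other gene lower in 4T1 DOX, at 26.7 to 37.5 CPM (median 34.6) in 4T1 DOX libraries, against 28.9 to 48.2 CPM (median 39.7) in HC11 DOX libraries. The log2 fold change of Kif14 was -0.23 ± 0.09 (adjusted p = 0.0366), and the call held in 13 of 25 alternatives, with an adjusted p of up to 0.109 by edgeR when single libraries were left out. Ect2 and Anln had 0.32 ± 0.15 (adjusted p = 0.0672) and 0.03 ± 0.14 (adjusted p = 0.86). Without library 5 Ect2 was called higher, at 0.18 (adjusted p = 0.0156), and Anln was -0.09 (adjusted p = 0.361). The sign of Anln also turned without 4T1 DOX library 3, 7 or 8, at -0.0083, -0.026 and -0.013.

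All 3 genes of mitotic exit were higher in 4T1 DOX. Cdc20 had 192 to 254 CPM (median 212) in 4T1 DOX libraries, against 98.3 to 149 CPM (median 127) in HC11 DOX libraries, with no overlap and a log2 fold change of 0.79 ± 0.08 (adjusted p = 4.41e-08). Ube2c had 169 to 252 CPM (median 179) in 4T1 DOX libraries, against 113 to 161 CPM (median 139.6) in HC11 DOX libraries, also with no overlap (log2 fold change 0.50 ± 0.09 (adjusted p = 3.74e-05)). Pttg1 was higher by 0.38 ± 0.11 (adjusted p = 0.00329), with overlap, and its call was lost with total counts only and in the fit of all 3 groups. Ccnb2, Cdc20, Kif20a, Kif23 and Plk4 were the 5 of the 40 genes called higher in all 26 settings, those that leave out 1 library included.

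Between the lines 12 of the 20 ratios differed, by an exact permutation test over 8 and 10 libraries with adjustment over the 40 tests. Here too other pairs of genes were not compared, and 69.9% of the single genes tested were called in either direction. The groups did not overlap for 4 of them. Ndc80 to Spc25 was 0.85 ± 0.12 in 4T1 DOX libraries and -0.02 ± 0.14 in HC11 DOX libraries (SD, n = 8 and 10), a difference of 0.87. Kif23 to Racgap1 was -0.54 ± 0.13 in 4T1 DOX libraries and -1.34 ± 0.40 in HC11 DOX libraries, a difference of 0.79. Plk1 to Plk4 differed by -0.72 and Ttk to Mad2l1 by 0.57. Each of these 4 pairs had an adjusted p = 0.000141 (exact permutation test), from p = 4.57e-05, the smallest that test can give with 8 and 10 libraries. Without HC11 DOX library 5 the 4 differences were 0.84, 0.67, -0.58 and 0.44, and all passed. Within complexes the pair of Ndc80 and Nuf2 differed by 0.34 (adjusted p = 0.000853, exact permutation test), and that of Birc5 and Incenp by 0.26 (adjusted p = 0.0145, exact permutation test). That of Birc5 and Incenp did not pass once 4T1 DOX libraries 1 and 2 were left out (0.18, adjusted p = 0.0679, exact permutation test). Bub1 to Bub3, Bub1b to Bub3, Aurka to Aurkb, Aurkb to Incenp, Cdca8 to Incenp, Cenpe to Cenpf, Cenpa to Ndc80 and Kif2c to Kif18a missed the threshold, with differences of -0.20 to 0.22.

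**Figure D5:**
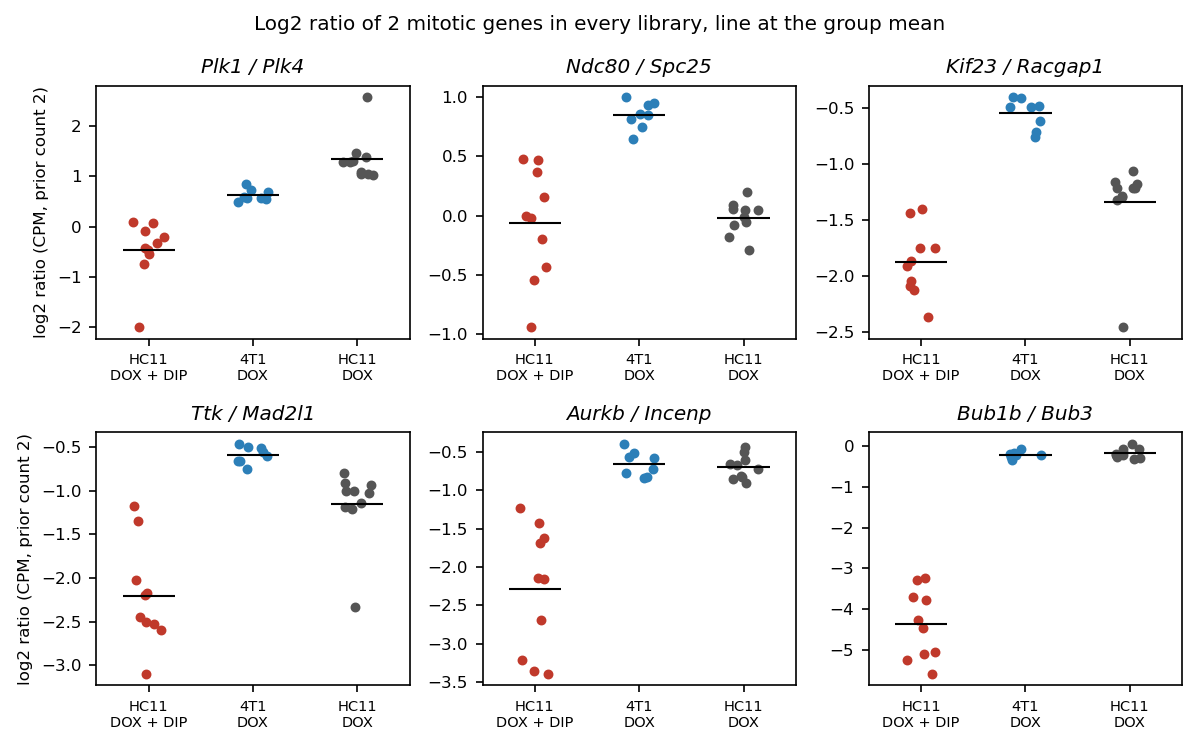
Log2 ratio of 6 pairs of the genes in every library, with HC11 DOX + DIP (10 libraries), 4T1 DOX (8) and HC11 DOX (10) from left to right and a line at the group mean. Bub1b / Bub3 and Aurkb / Incenp lie lower in HC11 DOX + DIP than in both other groups, Ndc80 / Spc25 lies higher in 4T1 DOX than in both other groups, and the single HC11 DOX point far from its group in Plk1 / Plk4, Kif23 / Racgap1 and Ttk / Mad2l1 is library 5.

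Levels can be set beside each other only per length, here as CPM per kilobase of summed exon length. In 4T1 DOX the highest were Cdc20 at 116 ± 11.7, Ccnb2 at 91.9 ± 16.4 and Top2a at 79.6 ± 7.94 CPM per kilobase (SD, n = 8). In HC11 DOX they were Cdc20 at 66.3 ± 9.78, Top2a at 59.3 ± 13.1 and Plk1 at 55.9 ± 10.2 (SD, n = 10), each within 1 SD of its neighbour in that order. In HC11 DOX + DIP Bub3 led, at 11.3 ± 3.36 (SD, n = 10), ahead of Anln at 3.59 ± 3.38 and Incenp at 3.39 ± 1.70, which differed by less than their spread. Kif14 and Kif18a were the lowest in all 3 groups, at 0.117 ± 0.0722 and 0.137 ± 0.0401 in HC11 DOX + DIP, 3.25 ± 0.318 and 2.24 ± 0.164 in 4T1 DOX, and 3.75 ± 0.586 and 1.62 ± 0.463 in HC11 DOX. The median gene had 1.07 CPM per kilobase in HC11 DOX + DIP, 21.5 in 4T1 DOX and 18.3 in HC11 DOX, or 35.2 in 4T1 DOX and 27.8 in HC11 DOX when the longest transcript gave the length. The order at the top also changed with that length. Top2a then led in HC11 DOX, at 102 ± 22.7, ahead of Anln at 72.6 ± 16.9 and Cdc20 at 69.1 ± 10.2. In 4T1 DOX Top2a led at 137 ± 13.7, ahead of Cdc20 at 121 ± 12.2. Bub3 still led in HC11 DOX + DIP, at 19.7 ± 5.86.

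Other genes of the same machinery were taken from lists of their neighbours in each complex. With DIP, 33 of 35 further kinetochore and centromere genes were lower and 0 were higher (the median log2 fold change was -2.99), where 21% of all genes were called lower and 24.5% higher. Knl1, the scaffold that recruits Bub1 and Bub3, had 1.40 ± 1.16 CPM in HC11 DOX + DIP libraries (SD, n = 10) and 33.1 ± 13.0 CPM in HC11 DOX libraries (n = 10), a log2 fold change of -4.54 ± 0.43 (adjusted p = 2.27e-08). Spc24, the NDC80 subunit paired with Spc25, had -4.46 ± 0.29 (adjusted p = 7.33e-11). Zwint, a partner of Knl1, was not called, at 0.03 ± 0.22 (adjusted p = 0.932). Of 30 further spindle genes 25 were lower and 0 higher (median -1.499), led by Kif18b at -4.48 ± 0.34 (adjusted p = 6.99e-10), Kif15 at -4.41 ± 0.29 (adjusted p = 8.26e-11) and Aspm, a spindle pole protein, at -4.37 ± 0.35 (adjusted p = 1.39e-09). Dync1h1, the dynein heavy chain, and Clasp1 were not called, at 0.31 ± 0.16 (adjusted p = 0.13) and 0.11 ± 0.09 (adjusted p = 0.348).

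The further cytokinesis genes divided, with 11 of 22 lower and 5 higher (median -0.34). Those that fell included Cit (citron kinase), Shcbp1 and Cep55, which recruits the abscission machinery, at log2 fold changes of -4.63 ± 0.31 (adjusted p = 7.60e-11), -4.62 ± 0.33 (adjusted p = 2.41e-10) and -4.52 ± 0.33 (adjusted p = 2.94e-10). The membrane-cutting ESCRT genes Chmp1b and Chmp4b, which also act outside cytokinesis, rose by 1.03 ± 0.14 (adjusted p = 2.68e-06) and 0.94 ± 0.20 (adjusted p = 0.000567). Of 33 further entry and exit genes, 23 were lower and 3 higher (median -1.08). Ccnb1 (cyclin B1), Espl1 (separase) and Foxm1, a transcription factor of late cell-cycle genes, had log2 fold changes of -4.67 ± 0.34 (adjusted p = 3.39e-10), -4.56 ± 0.31 (adjusted p = 9.63e-11) and -4.32 ± 0.32 (adjusted p = 3.93e-10), whereas Anapc16, a subunit of the anaphase-promoting complex, and Lin52, a subunit of MuvB, rose by 0.95 ± 0.19 (adjusted p = 0.000316) and 0.75 ± 0.15 (adjusted p = 0.000328). Of 21 cohesin and condensin genes, 15 were lower and 1 higher (median -0.76): the condensin subunit Ncaph had a change of -4.43 ± 0.24 (adjusted p = 4.76e-12), and the cohesin loader Mau2 rose by 0.52 ± 0.08 (adjusted p = 1.80e-05). Of 11 tubulins, 8 were lower and 1 higher (median -1.49), among them Tubb5 at -2.05 ± 0.26 (adjusted p = 1.42e-06) and Tubb2a, the 1 that rose, at 1.15 ± 0.45 (adjusted p = 0.0428).

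In 4T1 DOX against HC11 DOX the same lists were mixed, where 34.3% of all genes were called higher and 35.6% lower. Of the kinetochore list 14 of 35 were higher and 8 lower (median 0.16), with Cenpo at 1.22 ± 0.08 (adjusted p = 8.54e-11) and Zwint at 1.21 ± 0.16 (adjusted p = 1.02e-06) higher and Zw10, of the dynein-recruiting RZZ complex, lower at -0.89 ± 0.08 (adjusted p = 4.10e-09). Of the spindle list 15 of 30 were higher and 3 lower (median 0.24), led by the augmin subunit Haus4 at 1.62 ± 0.10 (adjusted p = 1.44e-11) and the kinesin Kifc1 at 1.02 ± 0.08 (adjusted p = 1.05e-09). Of the cytokinesis list 8 of 22 were higher and 3 lower (median 0.11), among them Septin11 at 0.65 ± 0.10 (adjusted p = 5.52e-06) and Cit at -0.38 ± 0.10 (adjusted p = 0.00196). In the entry and exit list 15 of 33 were higher and 6 lower (median 0.20): Ube2s, the partner of Ube2c in chain extension, was higher by 0.96 ± 0.11 (adjusted p = 3.32e-07), and Ccna2 (cyclin A2) was lower with no overlap, at -0.70 ± 0.06 (adjusted p = 1.17e-09). Cohesin and condensin genes were higher for 6 and lower for 3 of 21 (median 0.07), and Ncapd3, a condensin subunit, was lower at -1.14 ± 0.09 (adjusted p = 1.28e-09). The tubulins had 7 of 11 higher and 3 lower (median 0.91), with Tubb6 at 1.17 ± 0.11 (adjusted p = 7.53e-09) and Tuba1a at 1.13 ± 0.13 (adjusted p = 2.23e-07) higher and Tubb2a at -0.98 ± 0.11 (adjusted p = 1.82e-07) lower. Some tubulin genes are near-identical copies, so their reads may be split among them.

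Counts of 11 of the 40 genes share exon sequence with another gene, and no source used here gives the strand setting of the counting. The widest overlap was that of Kif20a with Cdc23, 29.3% of its exon length on the opposite strand, followed by Ube2c with Tnnc2 (22.8%), Kif4 with Pdzd11 (15.1%), Cdc25c with Gm3550 (12.7%) and Prc1 with Rccd1 (11.1%). Values of the overlapping genes may hold reads of the partner or lack reads of their own, and neither was tested. Gm3550 alone of the partners had more counts over all libraries than its gene, 105243 against 92589 for Cdc25c. The pseudogene Ccnb2-ps had 2281 counts over all libraries, against 319445 for Ccnb2.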

How the data were processed

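Gene counts of 28 total RNA libraries were used. RNA was extracted with TRIzol and libraries were made with the NEBNext Ultra II kit after ribosomal RNA was removed, per the labels' protocols. The deposited values are raw read counts per Ensembl gene, whole numbers in 1 file per library, made by the authors with fastp 0.23.2 and featureCounts 2.0.1 on GRCm39, per the submitters' processing notes. The aligner is not given in the sources used here.

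Groups came from the cell line and treatment labels, and library numbers follow the series order as names only. Each comparison was fitted in edgeR 4.0.16 under R 4.3.3 on its own libraries (filterByExpr, TMM factors, glmQLFit with robust estimation, glmQLFTest), with Benjamini-Hochberg adjustment over all genes and a threshold of 0.05. Standard errors of fold changes (log2) were taken as their size over the square root of F. CPM used TMM factors over all 28 libraries, and ratios used log2 CPM with a prior count of 2. Ratios were tested over libraries with 100000 resamples for 10 against 10 and exactly for 8 against 10 (scipy 1.17.1, two-sided), adjusted over 40 tests. The procedure was tested on simulated data. The alternatives were DESeq2 1.42.0, limma voom 3.58.1, RLE factors, total counts, no filter, a fit of all 3 groups and leaving out libraries.

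Symbols came from GENCODE vM21, which named 52073 of 56748 IDs. Of 176 names in the neighbouring and marker lists, 171 matched by symbol, 4 by synonym and 1 (Lin54) not at all. Exon lengths, GC content and overlaps were taken from the same release, and promoters from RefSeq (GRCm38.p6). Its build differs from that of the counts, so no count was placed by coordinate. Full statistics were set for the most and least changed gene of each role, for every gene not called or called against the majority, and in each neighbouring list for the 3 largest calls and up to 2 genes against the majority, at a mean log2 CPM of at least 2. Some of these are left out of the text. The members, lists and pairs were chosen with earlier results of these data known. The value of the ratios without HC11 DOX library 5 was added after seeing the data.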

Additional observations from a re-analysis of the deposited data

Results flagged for a closer look

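In 120 sets, the 40 genes in each of 3 groups, the highest and the lowest library were compared with the rest of their group. A single library lay far from the others in 18 sets, where chance gives about 1 in 20, and all 18 were HC11 DOX library 5. It was the lowest of its group in 17 and the highest in 1. The sets are not independent, since they share the library.

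Among chromosome and entry genes, Mki67 had 87.9 CPM in library 5, against 196 to 398 CPM in the other 9 HC11 DOX libraries. Top2a had 207 CPM, against 525 to 611 CPM, and Plk4 had 22.5 CPM, against 46.1 to 58.6 CPM. Aurkb was the gene that stood apart upward, at 116 CPM, against 86.2 to 99.9 CPM. In the checkpoint, Bub1 had 22.5 CPM and Ttk 12.5 CPM, against 48.6 to 97.0 and 34.8 to 50.4 CPM. The kinetochore genes Cenpf, Ndc80, Nuf2 and Spc25 had 24.4, 14.6, 33.6 and 17.9 CPM, and their lowest values elsewhere in the group were 55.0, 29.3, 49.7 and 30.5 CPM. The spindle genes Kif11, Kif18a, Kif4, Hmmr and Nusap1 had 32.1, 5.59, 33.5, 28.8 and 28.6 CPM. The cytokinesis genes Kif23, Anln and Ect2 had 36.4, 148 and 37.2 CPM, with lowest values elsewhere of 66.5, 293 and 102 CPM.

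The GC content and the length of transcripts moved with these offsets, as given with the comparison of the lines, and their part in them was not tested.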

How the results depend on the processing

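All 40 genes stayed lower with DIP in 28 settings of tool, scaling, filter and libraries. Between 4T1 DOX and HC11 DOX the count of 23 called (21 higher, 2 lower) was 15 (9 higher, 6 lower) with total counts only and 7 (7 higher, 0 lower) in the fit of all 3 groups. The 6 lower with total counts only were Mad2l1, Kif14, Spc25, Tpx2, Fam83d and Racgap1. The 9 higher were then Ccnb2, Plk4, Cdc20, Kif20a, Kif23, Kif2c, Cenpa, Ndc80 and Ube2c. In the fit of all 3 groups the 7 higher were Ccnb2, Bub3, Plk4, Cdc20, Kif20a, Kif23 and Kif18a. The count of genes lower was 1 without the filter and 1 without 4T1 DOX libraries 1 and 2, and leaving out single libraries gave 1 to 5 lower, the 5 without HC11 DOX library 5. DESeq2 called 19 higher and 2 lower, voom 24 and 2, and RLE factors 20 and 2. Total counts only turned the sign of 10 genes: Aurkb (-0.11), Cdc25c (-0.15), Incenp (-0.15), Cdca8 (-0.073), Kif4 (-0.20), Tpx2 (-0.20), Hmmr (-0.15), Prc1 (-0.020), Anln (-0.21) and Nusap1 (-0.0049), by lowering all genes (a shift of -0.23 in their median). Leaving out single libraries gave -0.079 to 0.085 for Kif4, -0.033 to 0.065 for Tpx2, -0.057 to 0.13 for Hmmr and -0.092 to 0.082 for Anln, the lowest of each without HC11 DOX library 5. Without that library the log2 ratio of Ect2 to Racgap1 with DIP was -0.0097 and that of Bub1 to Bub3 between the lines -0.019. Without the libraries set apart, that of Tpx2 to Aurka with DIP was -0.010 and that of Aurkb to Incenp between the lines -0.012. None of the 4 ratios passed the threshold in the first place. The cause was not tested for these changes other than that of total counts. The number of ratios called stayed at 15 to 16 with DIP and 11 to 12 between the lines. Depth did not limit the 40 genes, the lowest count being 42. No paired analysis was possible because the labels give no replicate numbers.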
